A study of Mus musculus with 10 samples.

Results

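The 47 genes described here encode the scaffold of the postsynapse and the adhesion proteins that span the synaptic cleft. They were taken by symbol from a deposited table of ribosome footprints in the developing mouse neocortex, which lists 22373 genes, and all 47 were found in it. At a mature excitatory synapse, Dlg scaffolds of the MAGUK family bind receptors and adhesion proteins, Dlgap proteins link Dlg to Shank, and Shank joins Homer and the actin skeleton. Regulators of small GTPases and of the WAVE complex shape that actin and move receptors. On the axon side, neurexins and the LAR-type receptor phosphatases Ptprd, Ptprs and Ptprf bind neuroligins, Lrrtm, Lrrc4b, Slitrk and Il1rapl1 proteins on the dendrite. Most cortical synapses form after birth, and several of these proteins also act earlier in growing axons and dendrites.

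Ribo-seq reads the short mRNA fragments that ribosomes protect from RNase, so that the count of a gene follows the number of ribosomes on its coding sequence. Footprints were measured in neocortex of wild-type CD-1 mice at 5 stages named by days after mating, from E12.5 and E14 in early neurogenesis through E15.5 and then E17 to P0, the day of birth. Each stage had 2 libraries, each made from a pool of brains of both sexes, so that the p-values below measure the spread between pools. No group carried a transgene, a deletion or a drug treatment. In bulk tissue, fewer cells of a type and fewer ribosomes per cell cannot be told apart.

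The 10 libraries held between 7544404 counts (P0 replicate 1) and 36129988 counts (E14 replicate 2). The P0 libraries stood apart from each other. Over the 47 genes, the log2 ratio of a stage's pair of libraries had an SD of 0.52 at P0 and of between 0.13 and 0.24 at the other stages. Of the 47 genes, 14 differed by more than 1.5-fold between the P0 replicates, against 1 at E14 and 0 at E12.5, E15.5 and E17. The wide P0 spread was not particular to this set. Among 4559 well-covered genes, averaging 500 counts or more, it reached 0.53 at P0 and lay from 0.13 to 0.22 at the earlier stages. The cause of the P0 spread was not tested. None of 10 neuronal and 10 neural progenitor markers was at 0 in all libraries. The tissue also changed in its other cells. From E14 to E15.5, the summed level of 10 markers of meningeal fibroblasts went from 73.3 and 80.0 to 3.86 and 3.21 CPM (counts scaled to a common library size with TMM factors), that of 8 choroid plexus markers from 1132 and 1140 to 14.6 and 11.8, and that of 8 endothelial markers from 25.4 and 33.0 to 8.83 and 7.77, with no marker of these 3 lists at 0 in all libraries. Over the same step the 10 neuronal markers went from 3022 and 2935 to 6342 and 6618 CPM, and all 10 were called higher. Of the 10 progenitor markers, 9 were called lower and 1 higher, but their summed level stayed similar, at 2283 and 2209 CPM and then 2158 and 2316. The 12 markers of the ganglionic eminence and interneurons also went up with the set at this step, from 74.9 and 70.4 to 206 and 204 CPM, with 7 called higher and 0 lower. The part of these changes in the results below was not tested.

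Taken as a set, the 47 genes drew a growing share of all footprints. They held 0.0644% and 0.0611% of the counts at E12.5, 0.0724% and 0.0745% of them at E14, 0.136% and 0.138% at E15.5, 0.155% and 0.163% at E17, and 0.205% and 0.200% at P0. No library of a stage overlapped with those of another stage. These shares are of total counts without TMM factors. The summed level of the 47 genes, scaled with these factors, rose less, from 757 and 756 CPM at E12.5 to 1684 and 1699 CPM at P0. The median level of the genes was 5.66 and 6.09 CPM at E12.5 and 13.8 and 17.7 CPM at P0.

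A gene was called changed where limma-voom gave a Benjamini-Hochberg adjusted p under 0.05 over all 13484 genes tested and a log2 fold change of at least 0.32 in either direction. All 47 genes passed the filter on low counts, and 36 of them had a mean of at least 100 counts. Between E12.5 and P0, 37 of the 47 were higher and 4 were lower, where 62.1% of all genes tested were called, 30.1% higher and 32% lower. The median log2 fold change of the set was 1.35. With the moderated F test across the 5 stages, 43 of 47 changed, beside 63.8% of all genes tested.

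The change was not spread evenly over the 4 steps. From E12.5 to E14, limma-voom called 0 of the 47 genes, beside 0.638% of all genes. Its unadjusted p was under 0.05 for 15 of the 47, beside 2137 of the 13484 genes tested. Of the 47, edgeR called 0 and DESeq2 called 3, and their shares over all genes are not given here. From E14 to E15.5, 33 rose and 2 fell, beside 16.5% and 19.6% of all genes, or 36.1% in either direction. From E15.5 to E17, 4 rose and 0 fell, beside 5.61% and 3.43%, or 9.04% in either direction. From E17 to P0, 11 rose and 3 fell, beside 9.46% and 11.1%, or 20.5% in either direction. The median log2 fold changes of the set at these steps were 0.30, 0.78, 0.32 and 0.19.

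**Figure D1:**
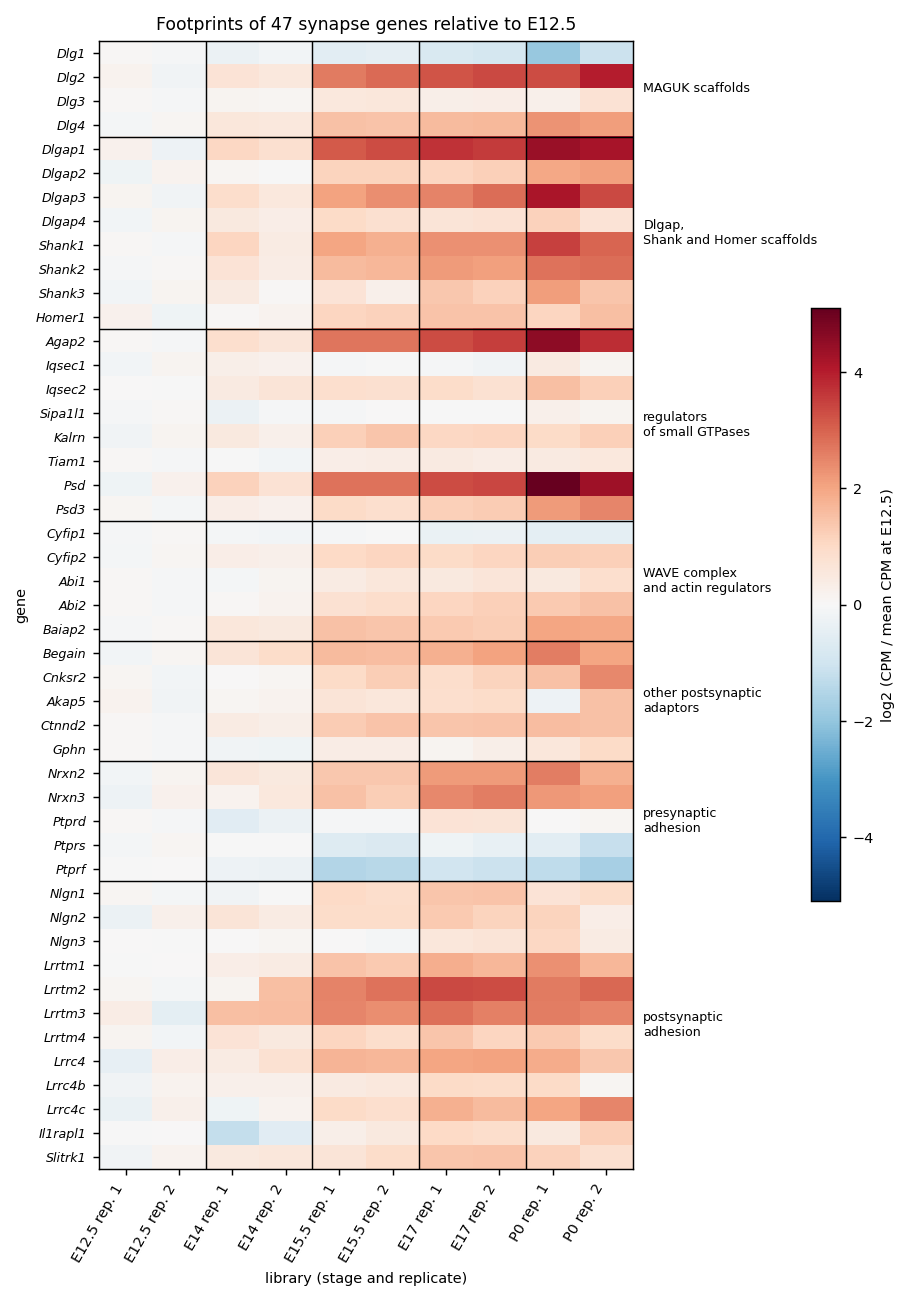
Footprint level of each gene (one line per gene, grouped by role) in each of the 10 libraries, as the log2 of its CPM over its mean CPM at E12.5. Most lines turn red at E15.5 and darken to P0, whereas Dlg1, Cyfip1, Ptprs and Ptprf turn blue.

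The step from E14 to E15.5 also held the least overlap between libraries. Both E15.5 libraries lay above both E14 libraries for 41 of the 47 genes and below them for 4, where 38.1% and 38.8% of all genes tested did so. From E12.5 to E14 the later pair lay above for 27 genes and below for 7, beside 27.0% and 26.2% of all genes, and from E15.5 to E17 above for 31 and below for 8, beside 34.0% and 33.8%. From E17 to P0 the later pair lay above for 20 genes and below for 10, beside 26.9% and 28.9%, and the other 17 overlapped. Between E12.5 and P0, 39 lay above and 4 below, beside 36.4% and 38.8%.

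**Figure D2:**
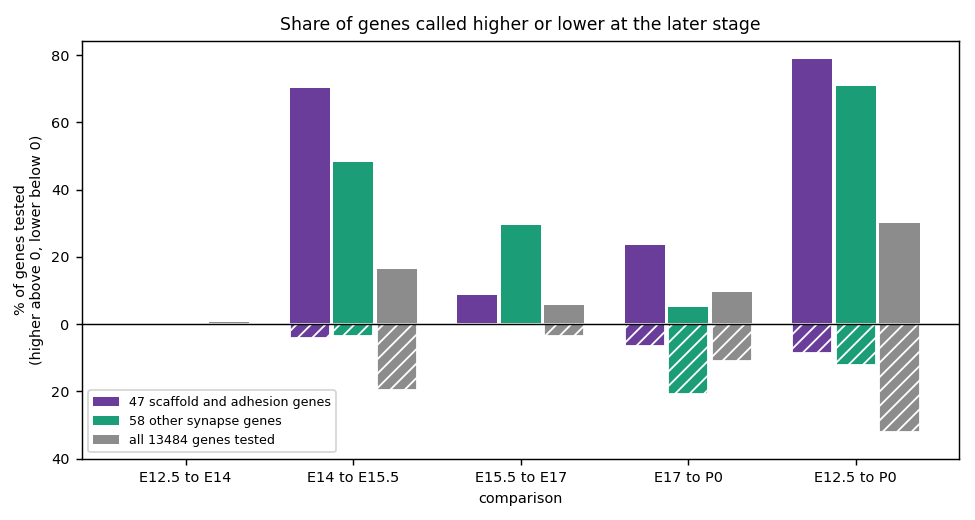
Percent of genes called higher (solid bars, above 0) and lower (hatched bars, below 0) at the later stage of each comparison, for the 47 genes, for 58 other synapse genes and for all 13484 genes tested. The bars of the 47 genes stand at 70.2% higher from E14 to E15.5 and 78.7% higher from E12.5 to P0.

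Among the 4 MAGUK scaffolds, Dlg2, Dlg3 and Dlg4 rose between E12.5 and P0 and Dlg1 fell. Dlg2 (ENSMUSG00000052572), which encodes PSD-93, stood at 8.30 and 6.43 CPM at E12.5, 12.1 and 10.7 CPM at E14, 46.1 and 54.5 at E15.5, 68.3 and 75.2 at E17 and 73.6 and 118 at P0. Both E15.5 libraries lay above all earlier ones. From E14 to E15.5 Dlg2 rose by 2.14 on the log2 scale (SE 0.23, adjusted p = 0.00033), and its whole rise up to P0 was 3.71 (SE 0.24, adjusted p = 5.33e-06). Dlg4, which encodes PSD-95, the main scaffold of the mature excitatory postsynapse, went from 11.8 and 13.5 CPM at E12.5 through 19.1 and 18.2, 35.2 and 34.7 and 38.4 and 39.6 to 62.2 and 55.0 at P0. Its libraries overlapped at no step. It rose from E14 to E15.5 by 0.91 (SE 0.11, adjusted p = 0.000516) and again from E17 to P0 by 0.58 (SE 0.10, adjusted p = 0.00808), and the second call was lost without E17 replicate 1 (adjusted p = 0.0762).

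Dlg1 (ENSMUSG00000022770) encodes SAP97, which is also a polarity protein of epithelia and progenitors. Its level was 42.6 and 40.2 CPM at E12.5, 33.6 and 38.0 CPM at E14, 28.3 and 30.3 at E15.5, 24.1 and 22.1 at E17 and 10.9 and 19.2 at P0. The values of each stage lay below those of the stage before, with the P0 libraries the furthest apart. From E12.5 to P0 Dlg1 fell by 1.42 (SE 0.21, adjusted p = 0.000539), while it was called at none of the 4 single steps. The count ratio of Dlg2 to Dlg1, which library size does not touch, went from 0.195 and 0.160 at E12.5 to 0.360 and 0.282 in the E14 libraries, 1.63 and 1.80 at E15.5, 2.84 and 3.41 at E17 and 6.77 and 6.14 at P0. The ratio of Dlg4 to Dlg1 went from 0.276 and 0.337 at E12.5 to 5.72 and 2.87 at P0. Coding lengths were not used here, so only the change of such a ratio can be read and not its value. Dlg3, the fourth of the family, stayed between 18.7 and 33.0 CPM and rose by 0.54 from E12.5 to P0 (SE 0.15, adjusted p = 0.0139), a call that was lost without E12.5 replicate 2 (adjusted p = 0.0879) or P0 replicate 2 (adjusted p = 0.0737).

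All 8 genes of the Dlgap, Shank and Homer layer rose between E12.5 and P0, with a median log2 fold change of 2.40. Of these, 7 rose from E14 to E15.5 and 5 from E17 to P0. The highest mean level of 7 of the 8 lay at P0, and the share of all genes that peaked there is not given here. Dlgap1 was at 4.07 and 2.92 CPM at E12.5, 7.24 and 6.18 CPM at E14, 30.2 and 34.7 at E15.5, 44.9 and 41.3 at E17 and 73.3 and 64.1 at P0. Its libraries overlapped between no pair of stages. The rise from E14 to E15.5 was 2.28 (SE 0.16, adjusted p = 7.63e-05), the largest of the 47 genes at that step, and that from E12.5 to P0 was 4.32 (SE 0.18, adjusted p = 7.67e-07), or 20.0-fold. Dlgap4 changed the least of the group. It was at 114 and 139 CPM at E12.5, 178 and 158 CPM at E14, 246 and 226 at E15.5, 200 and 213 at E17 and 285 and 207 at P0, where 1 library lay inside the range of the E15.5 and E17 libraries. Its rise from E12.5 to P0 was 0.94 (SE 0.17, adjusted p = 0.00126) and was 0.72 to 1.18 when 1 library was left out. The count ratio of Dlgap1 to Dlgap4 went from 0.0357 and 0.0210 at E12.5 to 0.257 and 0.309 at P0.

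The 3 Shank genes encode the large scaffolds that lie deepest in the postsynaptic density. Shank1 was at 1.48 and 1.35 CPM at E12.5 and at 15.9 and 11.0 at P0, a rise of 3.15 (SE 0.30, adjusted p = 4.02e-05). Shank2 was at 2.36 and 2.58 CPM at E12.5 and at 16.6 and 17.8 at P0, a rise of 2.79 (SE 0.15, adjusted p = 2.07e-06). Shank3 was at 0.935 and 1.12 CPM at E12.5 and at 4.46 and 2.74 at P0, a rise of 1.56 (SE 0.32, adjusted p = 0.00278) that was called at no single step and went up to 2.08 when 1 library was left out. For each of the 3, both P0 libraries lay above every E12.5 library. Homer1, which ties Shank to metabotropic glutamate receptors, had its highest mean level at E17, with 150 and 152 CPM there against 118 and 161 at P0.

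The 8 regulators of small GTPases held the largest rise of the set and 2 genes, Sipa1l1 and Iqsec1, that were not called between E12.5 and P0. Psd, an exchange factor for the small GTPase Arf6, was at 1.21 and 1.64 CPM at E12.5, 3.22 and 2.41 CPM at E14, 9.64 and 9.83 at E15.5, 14.2 and 15.0 at E17 and 47.9 and 28.2 at P0. Every stage lay above the stage before, and the P0 libraries differed from each other by more than any pair of Psd values at an earlier stage. Psd rose by 4.60 from E12.5 to P0 (SE 0.36, adjusted p = 1.38e-05), or 24.2-fold. From E17 to P0 it rose by 1.29 (SE 0.23, adjusted p = 0.00745), which lay between 0.95 and 1.72 when 1 library was left out and was not called without E17 replicate 1 (adjusted p = 0.0690). Psd3, of the same family, was at 17 and 14.5 CPM at E12.5, 19.7 and 18.4 CPM at E14, 30.8 and 28.7 at E15.5, 36.3 and 39.0 at E17 and 71.4 and 89.4 at P0. Its rise from E17 to P0 was 1.10 (SE 0.13, adjusted p = 0.00203), and it was called without any one of the 10 libraries. Agap2, a GTPase-activating protein for Arf, went from 0.605 and 0.561 CPM at E12.5 to 13.7 and 7.97 at P0, a rise of 4.02 (SE 0.45, adjusted p = 0.0001).

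Sipa1l1, a Rap GTPase-activating protein of spines also known as SPAR, was at 4.34 and 4.60 CPM at E12.5, 3.67 and 4.28 CPM at E14, 4.34 and 4.47 at E15.5, 4.41 and 4.39 at E17 and 5.33 and 4.96 at P0. The P0 libraries lay above the rest, but the difference from E12.5 was 0.18 (SE 0.13, adjusted p = 0.268) and was not called. The Arf6 exchange factor Iqsec1 differed by 0.25 (SE 0.15, adjusted p = 0.177) and was not called either. With total counts in place of TMM both were called higher, Sipa1l1 by 0.70 (adjusted p = 0.00224) and Iqsec1 by 0.77 (adjusted p = 0.00181), and Iqsec1 was also called without P0 replicate 2 (0.45, adjusted p = 0.0371). Its paralogue Iqsec2 rose by 1.29 (SE 0.18, adjusted p = 0.000308). Kalrn and Tiam1, exchange factors for Rac, rose by 1.11 and 0.51 from E12.5 to P0.

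**Figure D3:**
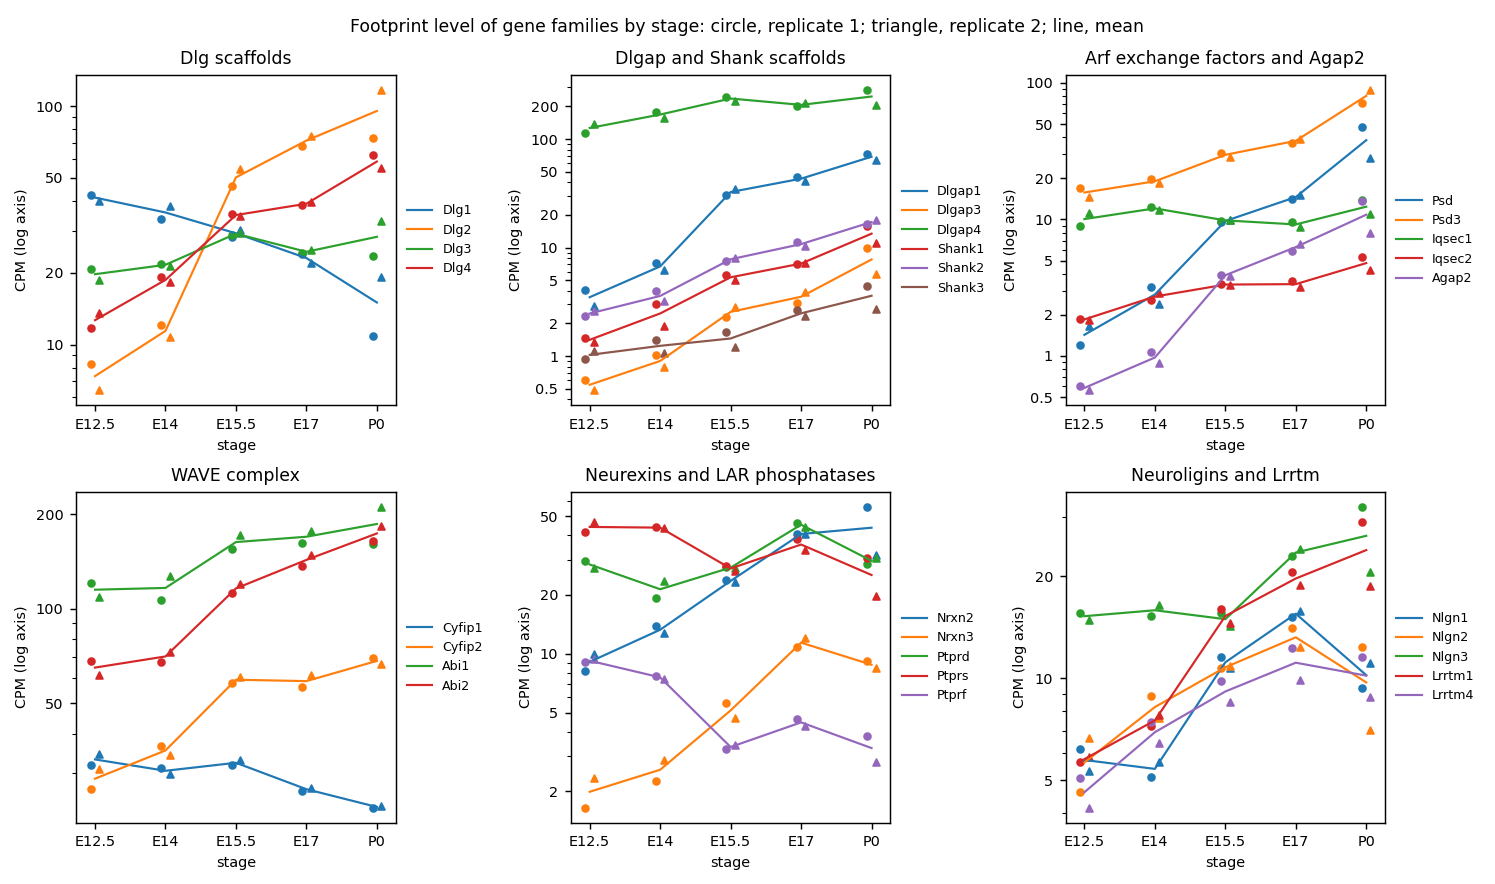
CPM (log axis) by stage for 6 sets of related genes, with a circle for replicate 1, a triangle for replicate 2 and a line through the stage means. Dlg1 crosses below Dlg2 and Dlg4 between E14 and E15.5, Cyfip1 declines while Cyfip2 climbs, and the Nlgn1 line turns down after E17.

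The WAVE complex drives branched actin, and Cyfip1 or Cyfip2 and Abi1 or Abi2 are alternative subunits of it. Of the 5 genes in this group, Cyfip2, Abi1, Abi2 and Baiap2 rose between E12.5 and P0, and Cyfip1 fell. Cyfip1 was at 31.7 and 34.5 CPM at E12.5, 31.1 and 29.8 CPM at E14, 31.7 and 32.9 at E15.5, 26.3 and 26.9 at E17 and 23.3 and 23.4 at P0. The E17 and P0 libraries lay below all earlier ones. Its fall from E12.5 to P0 was 0.50 on the log2 scale (fitted value -0.50, SE 0.10, adjusted p = 0.00193), and with total counts in place of TMM the fitted value was 0.024. Cyfip2 was at 26.7 and 30.8 CPM at E12.5, 36.5 and 34.2 CPM at E14, 58 and 60.8 at E15.5, 56.2 and 61.3 at E17 and 69.5 and 66.8 at P0. The count ratio of Cyfip2 to Cyfip1, which needs no scaling, was 0.841 and 0.894 at E12.5, 1.17 and 1.15 in the E14 libraries, 1.83 and 1.85 at E15.5, 2.13 and 2.28 at E17 and 2.99 and 2.85 at P0. It was higher at each stage than at the stage before, with no overlap between stages.

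Abi1 was at 121 and 109 CPM at E12.5, 106 and 127 CPM at E14, 155 and 171 at E15.5, 162 and 177 at E17 and 161 and 211 at P0. Its E12.5 and E14 values overlapped and lay below all later ones. Abi1 rose by 0.69 from E12.5 to P0 (SE 0.15, adjusted p = 0.00407), and Abi2 by 1.42 (SE 0.11, adjusted p = 1.09e-05). The count ratio of Abi2 to Abi1 was 0.565 in both E12.5 libraries and 1.02 and 0.867 at P0. Baiap2, or IRSp53, which bends membranes and links Rac to WAVE and PSD-95, was at 14.4 and 15.4 CPM at E12.5, 22.1 and 20.8 CPM at E14, 41.5 and 39.7 at E15.5, 37.2 and 35.9 at E17 and 60.6 and 57.6 at P0. Both libraries of E14, of E15.5 and of P0 lay above those of the stage before, and both of E17 lay below those of E15.5. Baiap2 rose from E17 to P0 by 0.69 (SE 0.09, adjusted p = 0.00288), a call kept without any one of the 10 libraries.

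Of the 5 other adaptors, 4 rose between E12.5 and P0 and Akap5 was not called. Ctnnd2, or delta-catenin, which joins N-cadherin to the postsynapse, was at 6.49 and 6.09 CPM at E12.5, 8.35 and 7.70 CPM at E14, 15.6 and 17.1 at E15.5, 16.7 and 17.5 at E17 and 18.5 and 17.7 at P0. All 6 libraries from E15.5 onwards lay above the 4 earlier ones. The rise into E15.5 was 1.02 (SE 0.11, adjusted p = 0.000295), within a rise of 1.52 between E12.5 and P0. Cnksr2, a scaffold of the Ras and Rap pathways, was at 4.40 and 3.70 CPM at E12.5, 4.15 and 4.31 CPM at E14, 7.89 and 9.75 at E15.5, 7.55 and 8.93 at E17 and 11.3 and 21.9 at P0. Its rise from E17 to P0 was 1.05 (SE 0.27, adjusted p = 0.0304). When 1 library was left out it lay between 0.47 and 1.42, and it was lowest without P0 replicate 2. The call was lost in 6 of these 10 fits: without P0 replicate 2, E15.5 replicate 1 or any one library of E14 or E17. Gphn encodes gephyrin, the scaffold of inhibitory synapses, and was at 11.4 and 10.2 CPM at E12.5, 9.49 and 9.19 CPM at E14, 13.9 and 14.1 at E15.5, 12 and 13.2 at E17 and 16.1 and 21.4 at P0. It rose from E12.5 to P0 by 0.83 (SE 0.15, adjusted p = 0.0014), with a range of 0.58 to 0.99 when 1 library was left out. From E17 to P0 it rose by 0.60 (SE 0.14, adjusted p = 0.0222), and by 0.36 without P0 replicate 2 (adjusted p = 0.0680). Akap5, which anchors protein kinase A and calcineurin, was at 3.59 CPM in P0 replicate 1 and 11.9 in P0 replicate 2, the widest gap in fold between replicates of a stage among the genes named here. Its difference from E12.5 to P0 was 0.94 (SE 0.44, adjusted p = 0.0925), -0.21 without P0 replicate 2 and 1.51 without P0 replicate 1 (adjusted p = 3.21e-05), and was also called with total counts in place of TMM (1.47, adjusted p = 0.0146).

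The 5 presynaptic adhesion genes split in direction. The neurexins Nrxn2 and Nrxn3 rose between E12.5 and P0, Ptprs and Ptprf fell, and Ptprd was not called. Nrxn2 was at 8.19 and 9.98 CPM at E12.5, 13.8 and 12.7 CPM at E14, 23.6 and 23.3 at E15.5, 40.6 and 40.7 at E17 and 55.9 and 31.7 at P0. The stages did not overlap up to E17, and the P0 libraries lay on either side of the E17 level. Nrxn2 rose from E12.5 to P0 by 2.16 (SE 0.25, adjusted p = 0.000118). Nrxn3 was at 1.65 and 2.32 CPM at E12.5, 2.25 and 2.88 CPM at E14, 5.60 and 4.69 at E15.5, 10.8 and 12 at E17 and 9.13 and 8.44 at P0. Its level was highest in both E17 libraries. From E15.5 to E17 Nrxn3 rose by 1.14 (SE 0.16, adjusted p = 0.00921), the largest change of the 47 genes at that step.

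The LAR-type phosphatases share a domain plan. Ptprf and Ptprs both fell into E15.5 and had their lowest mean level at P0, while Ptprd had its highest at E17. Ptprf was at 9.07 and 9.35 CPM at E12.5, 7.68 and 7.48 CPM at E14, 3.28 and 3.42 at E15.5, 4.67 and 4.28 at E17 and 3.81 and 2.81 at P0. Every library from E15.5 onwards lay below all those of E12.5 and E14. Ptprf fell from E14 to E15.5 by 1.18 (SE 0.14, adjusted p = 0.000523), while between E12.5 and P0 it fell by 1.59 (SE 0.15, adjusted p = 3.79e-05). Ptprs was at 41.6 and 46.7 CPM at E12.5, 44.2 and 43.5 CPM at E14, 28.0 and 26.3 at E15.5, 38.3 and 33.6 at E17 and 30.6 and 19.8 at P0. It too was lower in every library from E15.5 onwards than before, and it fell from E14 to E15.5 by 0.69 (SE 0.18, adjusted p = 0.0172). From E12.5 to P0 Ptprs fell by 0.90 (SE 0.18, adjusted p = 0.00296), with fitted values from -1.16 to -0.53 when 1 library was left out. With total counts in place of TMM neither Ptprs call was made, at -0.40 (adjusted p = 0.110) and -0.37 (adjusted p = 0.111), and the call at the step into E15.5 was also lost without any one library of E14 or E15.5 (adjusted p from 0.0719 to 0.101). Ptprd was at 29.6 and 27.3 CPM at E12.5, 19.3 and 23.3 CPM at E14, 27.7 and 27.2 at E15.5, 46.4 and 44.3 at E17 and 28.7 and 30.7 at P0. It peaked at E17, where both libraries lay above all the others, with a rise of 0.73 from E15.5 (SE 0.11, adjusted p = 0.0122) and a fall of 0.60 to P0 (SE 0.11, adjusted p = 0.00962). Its difference between E12.5 and P0 was 0.07 (SE 0.12, adjusted p = 0.619), and with total counts in place of TMM it was 0.60 and called (adjusted p = 0.00307). The count ratio of Ptprd to Ptprf went from 3.26 and 2.92 at E12.5 to 7.54 and 10.9 at P0.

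Of the 12 postsynaptic adhesion genes, 10 rose between E12.5 and P0 and none fell, while Nlgn2 (0.61, SE 0.27, adjusted p = 0.0800) and Lrrc4b were not called. Nlgn2 was called by DESeq2 (0.77, adjusted p = 0.0312), with total counts in place of TMM (1.13, adjusted p = 0.0058) and without P0 replicate 2 (1.13, adjusted p = 0.00285). The highest mean level lay at E17 for 9 of the 12, and the share of all genes that peaked there is not given here. Nlgn1, a neuroligin of excitatory synapses, was at 6.16 and 5.31 CPM at E12.5, 5.12 and 5.67 CPM at E14, 11.6 and 10.7 at E15.5, 15.2 and 15.8 at E17 and 9.35 and 11.1 at P0. It rose from E14 to E15.5 by 1.04 (SE 0.13, adjusted p = 0.000662) and fell from E17 to P0 by 0.57 (SE 0.13, adjusted p = 0.0169), and the E17 libraries were the 2 highest. Nlgn3 was at 15.6 and 14.9 CPM at E12.5, 15.3 and 16.5 CPM at E14, 15.6 and 14.3 at E15.5, 22.9 and 24.1 at E17 and 32.1 and 20.6 at P0. Its level was even up to E15.5 and higher in all 4 libraries after it. Nlgn3 rose from E12.5 to P0 by 0.71 (SE 0.19, adjusted p = 0.0108), with a range of 0.44 to 1.08 when 1 library was left out and an adjusted p of 0.0593 without E12.5 replicate 2.

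Lrrtm1, a neurexin ligand, was at 5.66 and 5.87 CPM at E12.5, 7.24 and 7.76 CPM at E14, 16.0 and 14.6 at E15.5, 20.6 and 18.8 at E17 and 29.0 and 18.8 at P0. All libraries from E15.5 onwards lay above the earlier ones, with P0 replicate 2 at the E17 level. Lrrtm1 rose from E14 to E15.5 by 1.02 (SE 0.19, adjusted p = 0.00454) and, between E12.5 and P0, by 1.96 (SE 0.21, adjusted p = 7.09e-05). Lrrc4b, or NGL-3, a ligand of the LAR-type phosphatases, was at 4.84 and 6.24 CPM at E12.5, 6.58 and 6.72 CPM at E14, 7.71 and 7.94 at E15.5, 11.0 and 10.5 at E17 and 10.9 and 5.96 at P0. Of its P0 libraries, 1 stood at the E17 level and 1 within the E12.5 range, and the difference from E12.5 to P0 was 0.40 (SE 0.25, adjusted p = 0.198). It ranged from 0.093 to 0.97 when 1 library was left out, was called without P0 replicate 2 (adjusted p = 0.00156), and was also called with total counts in place of TMM (0.92, adjusted p = 0.0125). Its paralogue Lrrc4c rose by 2.29 (SE 0.26, adjusted p = 0.000118), from 1.15 and 1.76 to 5.87 and 8.21 CPM. Il1rapl1 was read at 0.265 to 1.46 CPM and its rise of 1.07 from E12.5 to P0 (SE 0.30, adjusted p = 0.0139) was 0.52 without P0 replicate 2 (adjusted p = 0.364), and it was also not called without either E12.5 replicate (adjusted p = 0.0545 and 0.0837). The Lrrtm2 level differed between the E14 libraries, at 0.397 and 1.05 CPM, and its rise from E14 to E15.5 of 1.65 (SE 0.34, adjusted p = 0.00667) ranged from 1.10 to 2.44 when 1 library was left out.

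The 30 intracellular genes (scaffolds, GTPase regulators, WAVE and adaptors) and the 17 adhesion genes differed in the stage of their highest mean level. P0 had the highest mean level for 24 of the 30 intracellular genes and for 4 of the 17 adhesion genes, and E17 for 2 and 11. The E17 and P0 libraries overlapped for some of these, among them Nlgn2, Lrrtm3, Lrrtm4, Lrrc4b and Il1rapl1, and Dlg2, Dlgap4 and Abi1 of the intracellular genes. Their peak stage is therefore uncertain. The share of all genes that peaked at each stage is not given here. From E15.5 to E17 the calls were Nrxn3, Ptprd, Nlgn1 and Slitrk1, which are adhesion genes, and 0 of the 30 intracellular genes, with medians of 0.47 and 0.07. These 4 calls are 8.51% of the 47 genes, near the 9.04% of all genes tested, and Nlgn1 and Slitrk1 were not called by edgeR, by DESeq2, without the filter or with the replicate block, while DESeq2 also called Nrxn2 and Nlgn3. From E17 to P0 the 11 genes that rose, which were Dlg4, Dlgap1, Dlgap2, Dlgap3, Shank1, Shank2, Psd, Psd3, Baiap2, Cnksr2 and Gphn, were intracellular, and the 3 that fell, Ptprd, Ptprf and Nlgn1, were adhesion genes. The Ptprf call was lost under 19 of 20 alternatives, by edgeR (adjusted p = 0.0676), by DESeq2 (adjusted p = 0.254) and without P0 replicate 2 (-0.22, adjusted p = 0.413) among them. The median log2 fold changes of that step were 0.36 for the intracellular and -0.49 for the adhesion genes, and without P0 replicate 2 they were 0.47 and -0.13. The difference between the classes was not tested. Over the same step the summed level of 12 glial markers went from 216 and 233 to 469 and 394 CPM, that of the 10 progenitor markers from 2360 and 2484 to 1413 and 1955 and that of the 10 neuronal markers from 6840 and 7202 to 8365 and 9581, and their part in the result was not tested.

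The counts at these last steps varied with the libraries in the fit. The share of all genes in each changed fit is not given here. The counts therefore describe how firm the calls were and are not a result about the set. Without P0 replicate 1, 16 intracellular genes rose and 0 fell from E17 to P0, and 1 adhesion gene rose and 9 fell. Without P0 replicate 2, 15 intracellular genes rose and 2 fell, and 3 adhesion genes (Nrxn2, Nlgn3 and Lrrtm1) rose and 2 (Ptprd and Nlgn1) fell. Without E17 replicate 1, the calls were 2, Psd3 and Baiap2, and without E17 replicate 2, 5 genes rose and Ptprd fell. With E17 and P0 alone in the fit, limma-voom called 0 of the 47, of which 14 had an unadjusted p under 0.05. With all libraries, edgeR called 13 genes at this step and DESeq2 12. From E15.5 to E17, limma-voom called 0 without any one library of those 2 stages, where 9 to 12 had an unadjusted p under 0.05, and edgeR called 2 and DESeq2 4 with all libraries. Without either one of the P0 libraries, 19 rose at this step (7 intracellular and 12 adhesion genes) and Dlg1 fell. The directions of Psd3, Baiap2, Ptprd and Nlgn1 at the last step were the same without any one of the 10 libraries.

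**Figure D4:**
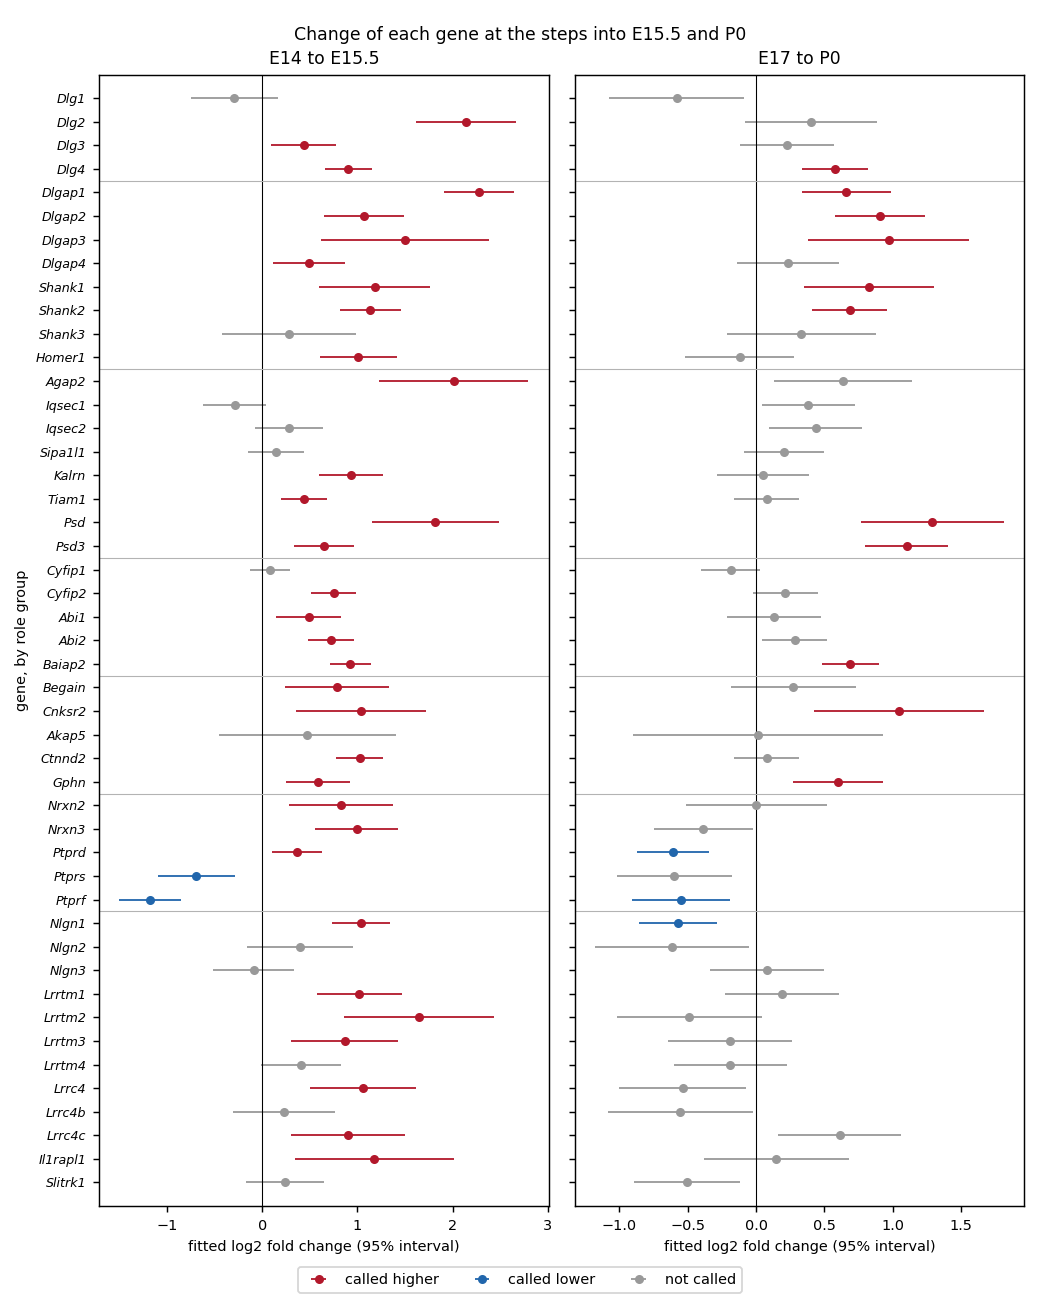
Fitted log2 fold change of each of the 47 genes, with its 95% interval, from E14 to E15.5 (left) and from E17 to P0 (right), with red for called higher, blue for called lower and grey for not called. On the left most points lie right of 0 throughout, and on the right the red points belong to the upper 5 role groups and the blue ones to the adhesion genes at the bottom.

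The calls from E14 to E15.5 were firmer for some genes than for others. Of the 35, 18 were called without any one of the 10 libraries, among them Dlg2, Dlg4, Dlgap1, Shank2, Homer1, Agap2, Kalrn, Psd, Cyfip2, Baiap2, Ctnnd2, Nrxn3, Ptprf, Nlgn1 and Lrrtm1. The other 17 missed the threshold in at least 1 of these fits, with adjusted p up to 0.216, and include Dlg3, Dlgap4, Abi1, Ptprd and Il1rapl1. From E12.5 to P0, 38 of the 41 calls held without any one library, and Dlg3, Nlgn3 and Il1rapl1 were the other 3.

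Another 58 genes of the postsynaptic density and of synapse adhesion, listed by role, were read beside the 47. From E12.5 to P0, 41 of the 58 rose and 7 fell, with a median of 0.97. From E14 to E15.5 28 rose and 2 fell, and from E15.5 to E17 17 rose and 0 fell. At the last step 3 rose, among them Lin7b (1.62), a partner of MAGUK scaffolds, and Synpo (1.55), an actin-binding protein of spines, and 12 fell. Those that fell were the adhesion genes Adgrl2, Clstn2, Flrt2, Flrt3 (-0.97), Lrfn3, Lrfn5, Slitrk2, Slitrk3 and Tenm4, and the scaffold and cytoskeletal genes Cask, Cttnbp2 and Sipa1l2. Adhesion genes make up much of this list, and no difference between its classes was tested. These counts stand beside the same background percentages as those of the 47 genes.

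The 47 genes were also long. In RefSeq (GRCm38.p6) their spans had a median of 101 kb, from 3.62 to 2271 kb, and 25 of them (53.2%) were longer than 100 kb, where the median of 12898 tested genes with a span was 24.8 kb and 15.2% were longer than 100 kb. Of the 47, 10 overlap another protein-coding gene, and 4 lie inside one: Lrrtm1 in Ctnna2, Lrrtm2 in Ctnna1, Lrrtm3 in Ctnna3 and Lrrc4 in Snd1. The others are Psd (with Nfkb2), Cyfip1 (Nipa2), Abi1 (Pdss1), Abi2 (Raph1), Shank1 (1700008O03Rik) and Cyfip2, which contains Fndc9. Whether counting used strand is not given in the sources used here, so values of these overlapping genes are less certain.

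Promoter windows from RefSeq (GRCm38.p6), running from 250 bases before a gene's start to 50 bases after it, were found for 37 of the 47 genes, in 63 windows. They held a median of 13 CpG dinucleotides and 58% G and C, against 7 and 52.7% over all 32851 windows. The recognition motif of NRF1, a transcription factor of many housekeeping and neuronal genes, was searched as GCGC, any base and TGCGC on both strands. It lay in 4 of the 63 windows (6.35%), of 4 different genes, where 4.60% of all windows held it. The GC box GGGCGG was found in 28 windows (44.4%, against 35.7% of all), the CRE motif TGACGTCA in 1 (1.59% against 1.79%) and TATAAA in 5 (7.94% against 13.6%), again on both strands. The 4 stretches with the NRF1 letters are shown because they belong to 3 genes that rose with Dlg2 and Dlgap1 and to 1 that fell. Each is 30 bases long, written 5′ to 3′ along the gene's strand with the motif in capitals.
Dlg4, chr11:70023913-70023942, plus strand: ctcccgtactGCGCAGGCGCcgccccccct
Dlgap4, chr2:156720908-156720937, plus strand: gtacgcgtgcGCGCTTGCGCtgtgtcccgc
Psd, chr19:46327138-46327167, minus strand: tcgcgcctctGCGCTTGCGCattacgacaa
Ptprs, chr17:56476511-56476540, minus strand: aggcatctgcGCGCAGGCGCagtactgtac
The motif ran from 59 to 50 bases before the start of Dlg4, where it overlapped a GC box, from 47 to 38 before that of Dlgap4 and from 50 to 41 before that of Ptprs, and it spanned the start of Psd. The genes that share the motif thus moved in both directions between E12.5 and P0, with Psd at 4.60, Dlg4 at 2.20, Dlgap4 at 0.94 and Ptprs at -0.90 on the log2 scale. A match of letters is a description of the window and not a measured binding site.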

How the data were processed

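Footprints of 10 neocortex libraries were analysed from 1 table. The authors deposited whole-number footprint counts per gene, not scaled to depth. The study's methods state that adapters were cut off, identical reads were collapsed and contaminants were removed with Bowtie 2. They state that STAR aligned the reads to GENCODE coding transcripts and the genome with multi-mapping reads kept, so that paralogues can share reads. The submitters' notes give STAR 2.7.0, whereas the study's methods name an earlier version. Whether this table went through DeepShape-prime and tximport is not stated. Symbols matched 22274 of 22373 identifiers.

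In R 4.3.3, genes with 32 or more footprints over the 2 libraries of a stage (13484) were fitted with limma-voom (limma 3.58.1) on TMM library sizes (edgeR 4.0.16), with 1 coefficient per stage, two-sided tests and Benjamini-Hochberg adjustment over all genes. DESeq2 1.42.0 was an alternative. The depth of 7544404 to 36129988 counts limits precision most in P0 replicate 1. Members, role groups and other lists were chosen with earlier results of these data known. Values in every library are given for the genes with the highest level, the largest rise and the largest fall or smallest rise in each role group, and for the 2 largest rises and falls at each step, with a mean of at least 100 counts. Further genes with values (Dlg3, Dlg4, the Shank genes, Homer1, Agap2, Iqsec1, Iqsec2, Kalrn, Tiam1, Abi2, Cyfip2, Akap5, Nlgn2, Lrrtm2, Lrrc4c and Il1rapl1) were picked after their values were seen, as paralogues or as exceptions. Scripts were tested on simulated data.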

Additional observations from a re-analysis of the deposited data

How the results depend on the processing

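Over 20 alternatives, 100 results of single genes were followed, those of all 47 genes from E12.5 to P0 and those called at a single step. Of their 1978 values, 1740 kept their direction and side of the threshold, 225 lost the call, 11 gained it and 2 reversed. Genes not called at a single step were not among them, so gains at the steps are missing from the 11. The reversals were Cyfip1 from E12.5 to P0 with total counts only (0.024) and Akap5 without P0 replicate 2 (-0.21, up to 1.51 without P0 replicate 1). Total counts only moved the median of all genes by 0.29 from E14 to E15.5 and by 0.51 from E12.5 to P0. The counts of called genes that follow stand without the share of all genes under the same setting. A change in them is therefore not shown to be particular to the set. From E12.5 to E14, 1 gene was called higher with total counts only, 3 with DESeq2 and 3 with sample quality weights, and the median was 0.36 with total counts only. From E14 to E15.5, 1 gene was lower with total counts only, and the median was 0.76 with DESeq2 size factors, 1.07 with total counts only, 0.76 with counts outside Hist genes, 0.79 with no filter, 0.64 with a mean of at least 100 counts and 0.79 with edgeR. From E15.5 to E17, 2 genes were higher with no filter, with edgeR and with the replicate block, 21 with quality weights and 20 with only the stages compared, and 1 was lower under each of the latter 2, while the median was 0.38 with total counts only. From E17 to P0, 4 were higher and 0 lower with quality weights, and 0 in either direction with only the stages compared. From E12.5 to P0, 2 were lower with total counts only and 2 with only the stages compared, and the median was 1.88 with total counts only and 1.11 with a mean of at least 100 counts. Leaving out 1 library in turn gave, for the 5 comparisons in order, 0 to 6, 18 to 34, 0 to 19, 2 to 18 and 34 to 38 genes higher, 0 to 1, 1 to 2, 0 to 1, 0 to 9 and 4 to 4 lower, medians of 0.27 to 0.40, 0.73 to 0.81, 0.30 to 0.33, 0.15 to 0.21 and 1.31 to 1.37, and 41 to 46 genes past the F test. Replicate numbers did not pair the libraries in a common direction over the 10 pairs of stages. Deviations from the stage means correlated at -0.64 to -0.11 between E12.5 and the other stages, and at -0.04 to 0.43 among those others. Whether the libraries share a factor other than stage was not tested. The cause of the differences between settings was not tested either. Low depth in P0 replicate 1 limits the genes of low count, but the P0 replicates also stood apart in genes of high count.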
